A study of Caenorhabditis elegans with 2 samples.

Results

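The isocitrate dehydrogenase genes of Caenorhabditis elegans are idhg-1, idhg-2, idha-1, idhb-1, idh-1 and idh-2, 6 of the 19973 protein-coding genes on the nuclear chromosomes. Their binding by MED-1 was read from chromatin immunoprecipitation and sequencing (ChIP-seq) of whole hermaphrodite embryos at mid-embryogenesis. The family was chosen by gene name, but it was selected because of a measured value: the peak upstream of idhg-1 had the strongest signal of any nuclear peak. That rank and everything taken from the same signals is therefore given as a description, with no test. All embryos came from strain OP391, unc-119(ed3) III; wgIs391, in which the transgene makes MED-1 with a C-terminal TY1-EGFP-FLAG tag and also supplies unc-119(+). The immunoprecipitation used an antibody to GFP. There was 1 group of 2 biological replicates, so no groups were compared. The age of the embryos within the stage is unknown, they were not separated by tissue, and the protein comes from an inserted transgene copy of med-1, so neither the cells that hold the signal nor binding by the untagged protein can be read from these data. The control experiment that the labels name was not analysed here.

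Isocitrate dehydrogenases convert isocitrate to 2-oxoglutarate. In mammals the NAD-dependent enzyme is a mitochondrial complex of alpha, beta and gamma subunits that carries this step of the tricarboxylic acid cycle, with the alpha subunit catalytic and the others regulatory. Separate NADP-dependent enzymes, one cytosolic and one mitochondrial in mammals, make NADPH. RefSeq names idha-1 the alpha and idhb-1 the beta subunit of the NAD enzyme, idhg-1 and idhg-2 further subunits of it, and idh-1 and idh-2 the NADP enzymes. MED-1, a member of the GATA family of transcription factors, is known for starting the mesendoderm programme in the early embryo, where it acts on end-1, end-3 and tbx-35 through a site whose core reads GTATAC.

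The sequence under the idhg-1 peak is printed first because it lies under the strongest nuclear peak of the lists. It is the 250 bases that end at the base before the first annotated start of idhg-1, on the strand of the gene, from the RefSeq genome of build WBcel235, which is the assembly called ce11. Capitals mark GCG and TTGC where they are separated by 3 to 11 bases on one strand, here called a module. This pattern was chosen after summit sequences among the 12 strongest nuclear peaks had been read, idhg-1 and the genes printed next among them, and after the shares of several versions of it at optimal summits had been seen.
idhg-1, chrIII:4568547-4568796, plus strand: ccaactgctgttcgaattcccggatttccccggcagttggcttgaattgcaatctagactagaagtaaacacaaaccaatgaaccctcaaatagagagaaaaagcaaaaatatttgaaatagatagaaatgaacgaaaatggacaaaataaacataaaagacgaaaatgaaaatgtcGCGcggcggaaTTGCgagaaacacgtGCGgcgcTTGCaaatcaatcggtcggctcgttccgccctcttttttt

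The 2 modules of idhg-1 lay on the strand of the gene and on either side of the summit. The first ran from 24 to 10 bp before the summit, with 8 bases between its GCG and its TTGC. The second ran from 2 to 12 bp after the summit, with 4 bases between them. The palindrome CACGTG began 3 bp before the summit, and its last G was the first G of the second module. A CGCGC overlapped the GCG of the first module, on both strands. To compare, the 50 bases on each side of the optimal summit are printed for the other genes among the 10 strongest nuclear peaks whose windows overlap no exon, on the strand with more modules and with the same capitals. They are among the sequences from which the pattern was taken, and show how its copies sit in them.
atx-2, chrIII:10461275-10461375, plus strand: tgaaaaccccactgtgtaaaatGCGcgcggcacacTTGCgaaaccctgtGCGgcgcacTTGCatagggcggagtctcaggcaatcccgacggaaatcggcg
C16C10.4, chrIII:4171130-4171230, minus strand: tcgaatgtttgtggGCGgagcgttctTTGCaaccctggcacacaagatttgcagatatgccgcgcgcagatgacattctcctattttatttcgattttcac
nmad-1, chrIII:5555081-5555181, plus strand: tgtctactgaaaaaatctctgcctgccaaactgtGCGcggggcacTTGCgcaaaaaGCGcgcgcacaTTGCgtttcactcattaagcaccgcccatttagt
C46F11.4, chrIII:3664388-3664488, minus strand: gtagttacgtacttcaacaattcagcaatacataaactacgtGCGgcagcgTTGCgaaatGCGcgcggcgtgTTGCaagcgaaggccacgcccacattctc
B0495.9, chrII:7708731-7708831, minus strand: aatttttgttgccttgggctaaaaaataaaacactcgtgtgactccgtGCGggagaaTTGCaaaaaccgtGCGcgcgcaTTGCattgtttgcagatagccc
F39G3.3, chrV:4731540-4731640, plus strand: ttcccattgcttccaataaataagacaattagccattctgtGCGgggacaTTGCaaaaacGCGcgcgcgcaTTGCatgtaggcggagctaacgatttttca

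Of these source sequences, atx-2, nmad-1, C46F11.4, B0495.9 and F39G3.3 each had 2 modules in one orientation, and C16C10.4 had 1. The members on IV and X, with no module in the 100 bases before their first start, are printed next on the strand of each gene, since they belong to members with weaker peaks.
idh-1, chrIV:9441108-9441207, minus strand: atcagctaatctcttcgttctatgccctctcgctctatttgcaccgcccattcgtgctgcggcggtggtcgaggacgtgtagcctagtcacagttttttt
idh-2, chrX:11215900-11215999, plus strand: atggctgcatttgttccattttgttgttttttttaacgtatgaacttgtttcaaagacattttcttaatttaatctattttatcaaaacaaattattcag
idhb-1, chrX:14174064-14174163, minus strand: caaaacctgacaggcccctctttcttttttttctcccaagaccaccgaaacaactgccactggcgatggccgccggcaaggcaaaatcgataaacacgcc

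The idhg-1 peak, chosen for its rank, was the strongest nuclear peak in each replicate as well as in the pooled list. Signal here is the value that the authors' peak caller gave each peak, and its unit is not given in the sources used here. It is read within a list, except where the 2 replicates are averaged or set as a ratio. The pooled list, made from both replicates, and the optimal list, which is its 460 strongest peaks, gave the idhg-1 peak a signal of 521. It was 243 in replicate 1 and 272 in replicate 2, a mean of 257 ± 19.99 (SD, n = 2). That SD also holds any difference in scale between the lists, whose nuclear medians at optimal peaks were 30.5 and 35.2. In all of these lists the idhg-1 peak ranked 2 among all peaks, behind a peak of the mitochondrial genome, and 1 among nuclear peaks. The next nuclear peak had 415 in the pooled list, 217 in replicate 1 and 215 in replicate 2, so that idhg-1 was 1.25, 1.12 and 1.26 times as strong. Against the median nuclear optimal peak, at 63.0, idhg-1 was 8.27 times as strong in the optimal list. The same ratio was 7.97 in replicate 1 and 7.70 in replicate 2, over the medians of their own peaks at the optimal positions.

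The replicates placed the peak within 11 bp of each other, against a median distance of 26 bp over optimal peaks seen in both. On ce11 the optimal peak is chrIII:4568633-4568870, with its summit at 4568748. That is 49 bp upstream of the first annotated start of idhg-1 (WBGene00009440, plus strand), 265 bp upstream of its second start, and outside any gene. The right end of the peak lay 74 bp past the first start. The summit was 59 bp upstream of that start in replicate 1 and 48 bp upstream in replicate 2. The signal of replicate 1 was 0.896 times that of replicate 2 at idhg-1, near the median of 0.846 over the 415 nuclear optimal peaks seen in both, of which the central range (5th to 95th percentile) was 0.481 to 1.56.

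**Figure D1:**
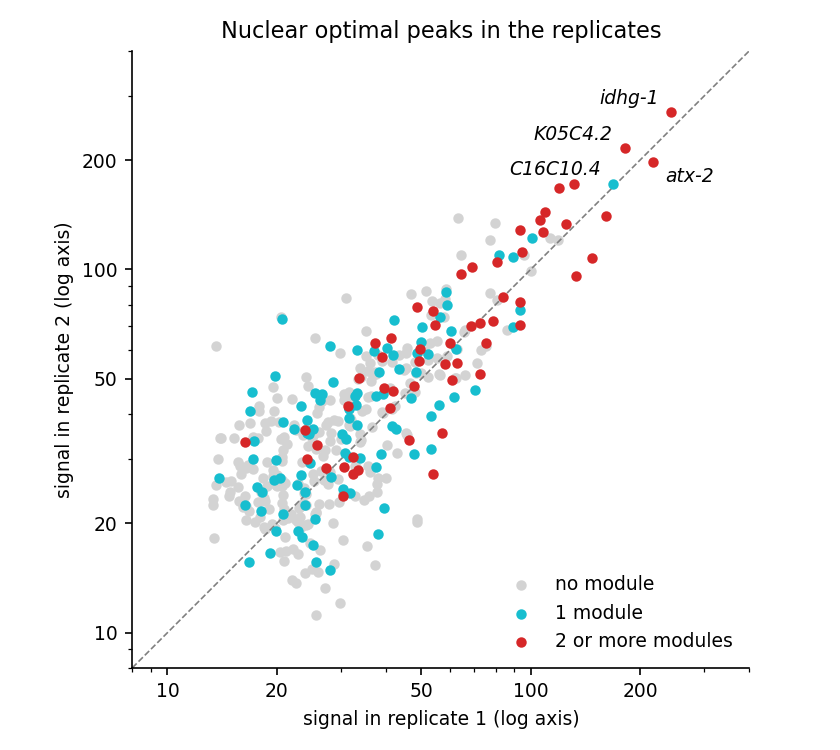
Signal of the nuclear optimal peaks seen in both replicates, replicate 1 on the x axis and replicate 2 on the y axis, both log axes with the caller's own unit. Colour gives the number of modules within 50 bp of the optimal summit, the dashed line marks equal signal, and idhg-1, at 243 and 272, lies at the upper right end, close to the line.

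The idhg-1 peak was 238 bp wide in the optimal list. The median width of optimal peaks was 324 bp, which was also the width of every other pooled peak within 5 kb of a member's start. Only 20 of the 460 optimal peaks were narrower, and idhg-1 was one of 16 such nuclear peaks of 440. Such peaks were mostly strong ones, since 15 of the 20 strongest nuclear peaks were narrower than 324 bp. Within 20 kb of the summit the optimal list held 1 other peak, 9785 bp away, with a signal of 39.9, and idhg-1 was 13.1 times as strong. The pooled list held 16 other peaks there, none stronger than that one. Replicate 1 held 1 other peak there, with a signal of 21.0. Replicate 2 held 18, the strongest at 21.1. The nearest small RNA gene lay 97790 bp away, while 192 of the 440 nuclear optimal summits lay within 200 bp of such a gene. Of the 219 stretches of 20 bases in the peak, 1 had another exact copy in the genome and 0 occurred in the mitochondrial genome.

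**Figure D2:**
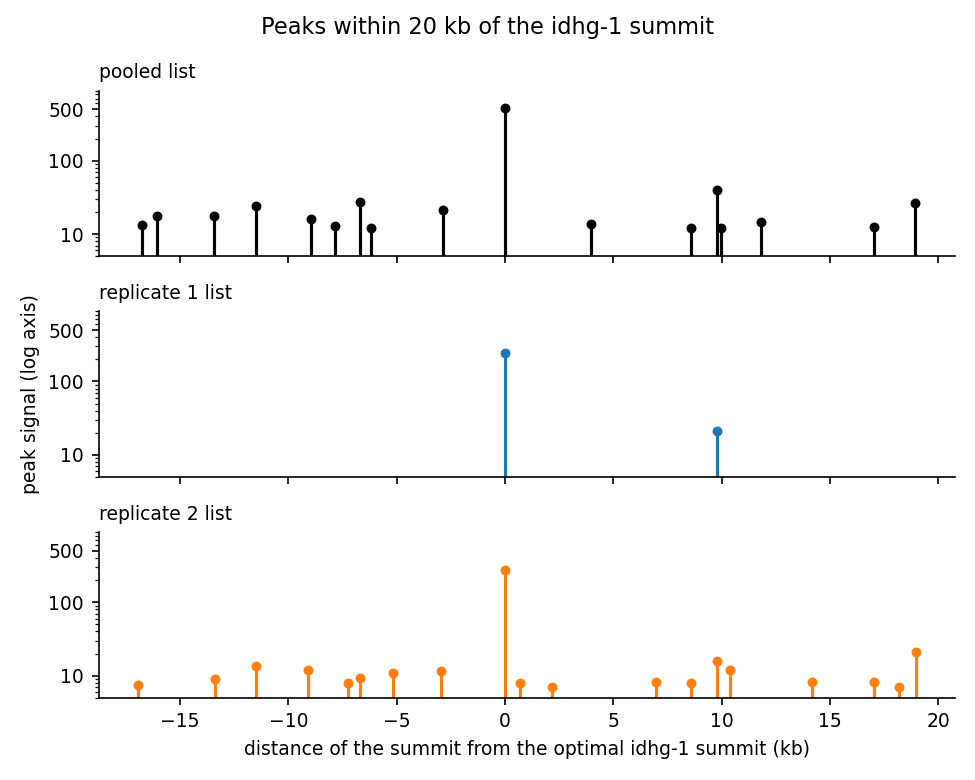
Signal (log axis) of every peak within 20 kb of the optimal idhg-1 summit, by the distance of its summit in kb, in the pooled, replicate 1 and replicate 2 lists. The idhg-1 peak at distance 0 reaches 521, 243 and 272, and every other peak in the window is below 50 in all of them.

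By the limit of 2 kb, the idhg-1 peak also falls to a divergent gene. The upstream neighbour of idhg-1 is mlcd-1, which encodes malonyl-CoA decarboxylase, an enzyme of fatty acid metabolism. It starts on the other strand 667 bp from the first start of idhg-1. The summit lay 618 bp from the mlcd-1 start and 49 bp from that of idhg-1. The strongest nuclear peak was thus within 2 kb of idhg-1 and mlcd-1, the only 2 genes with a peak that strong. From peak positions, signal that belongs to idhg-1 and signal that belongs to mlcd-1 cannot be told apart. Such a layout was common, because 106 of the 174 nuclear optimal peaks within 500 bp of a start and away from small RNA genes (60.9%) lay between divergent starts each within 2 kb.

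The other members had at most weak peaks. A gene was given a peak when a summit lay within 2 kb of any of its transcript starts. In the optimal list 1 of 6 members had one, idhg-1, beside 2.99% of all protein-coding genes. The list of replicate 1 gave the same member, 1 of 6, beside 11.9% of genes. The pooled list gave 5 of 6 members a peak beside 73.6% of genes, and replicate 2 gave all 6 a peak beside 74.4%. Those lists hold 30000 peaks each and include background by design, so a peak in them is common. The list of replicate 1 holds 2401 peaks, so a member without a peak there may only be below its lowest signal of 13.2.

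Among the NAD-enzyme genes, idha-1 came closest to the optimal list. Its strongest pooled peak had a signal of 28.8, which is 73.9% of the lowest optimal signal of 38.9, at rank 1048 and 1162 bp inside the gene in an intron. Its second, at 27.8, lay 285 bp upstream of the start, and that peak was the strongest in replicate 2, with 19.7. Replicate 1 had no peak at idha-1. Over all genes, 6.16% had a pooled peak at least as strong as that of idha-1. Its divergent neighbour lmd-1 starts 1290 bp away, so the peak 285 bp upstream of idha-1 was also within 2 kb of the lmd-1 start. Replicate 2 had a further weak peak of 7.51 within an exon of lmd-1. The idha-1 gene lies on chromosome I, minus strand, with its start at 8608631.

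The strong signal of idhg-1 had no counterpart at idhg-2, the gene that shares its name and product description. The strongest pooled peak of idhg-2 had a signal of 15.1, 182 bp inside the gene in an exon, and the next had 14.8 at 67 bp upstream of the start. Replicate 2 had 9.68 at 67 bp upstream, and replicate 1 had no peak. Of all genes, 49.3% had a pooled peak at least as strong. The idhg-2 start is at 6974558 on the plus strand of chromosome I, with C30F12.4 starting 862 bp away on the other strand.

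For idhb-1, replicate 2 alone gave a peak, with a signal of 10.1, in an intron and 215 bp upstream of the second start. The gene has starts at 14174063 and 14173389 on X, minus strand, and its divergent neighbour C37E2.2 starts 1977 bp from the first. A stronger pooled peak of 27.3, with 13.5 in replicate 1, lay 3478 bp past the nearest start of idhb-1 and 292 bp upstream of sym-4, so it fell outside the 2 kb.

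Both NADP-enzyme genes were weak. For idh-1 (IV, minus strand, first start 9441107) the strongest pooled peak had a signal of 18.2 at 170 bp upstream of the first start, and replicate 2 had 10.4 at 157 bp upstream. For idh-2 (X, plus strand, start 11216000) the pooled peak had 15.7 and that of replicate 2 had 10.8. The idh-2 peak lay 628 bp upstream of its start but only 98 bp from the start of the divergent gene C34F6.7, in an intron of it. As strong a pooled peak was found at 30.9% of genes for idh-1 and 45.6% for idh-2. Replicate 1 had no peak at either gene.

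The distance limit of 2 kb decided a few weak peaks. Inside it were, among others, replicate 2 peaks of 6.95 at 1895 bp past a start of idhg-1 and of 7.85 at 1691 bp upstream of idh-1. The pooled list had one of 11.8 at 1389 bp upstream of idh-1. With a limit of 1 kb the members with a peak were still 5 in the pooled list and 6 in replicate 2. With a limit of 500 bp they were 4 and 5. Just outside it were pooled peaks of 16.2 at 2409 bp upstream of idh-2 and of 18.9 at 2523 bp past a start of idh-1. A pooled peak of 30.5 at 3667 bp upstream of idh-1 lay 11 bp from a small RNA gene.

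**Figure D3:**
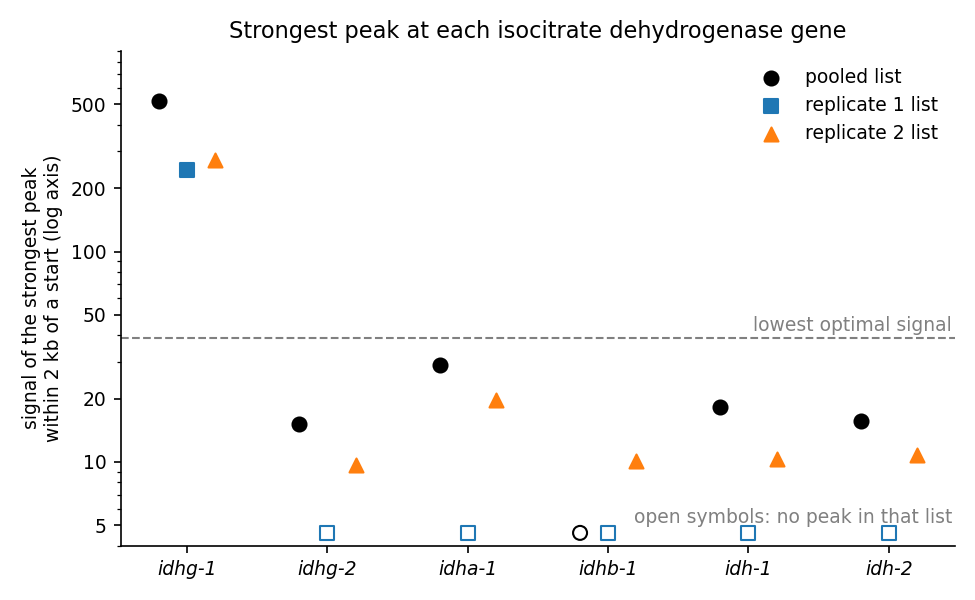
Signal (log axis) of the strongest peak within 2 kb of a transcript start for each isocitrate dehydrogenase gene, in the pooled, replicate 1 and replicate 2 lists. Open symbols at the bottom stand for no peak, the dashed line is the lowest optimal signal of 38.9, and idhg-1 is the only member with a point above it. The line belongs to the scale of the pooled and optimal lists and is no threshold for the replicate points.

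The rest of the cycle was read from a list of 33 genes of the tricarboxylic acid cycle and the reactions that feed it, of which 32 matched the annotation. One of the 32 (3.13%) had an optimal peak, beside the 2.99% of all genes. That gene was dlst-1, which encodes the succinyltransferase subunit of 2-oxoglutarate dehydrogenase, the enzyme of the step after isocitrate dehydrogenase. Its signal was 105 in the pooled list, at rank 106, with 49.2 in replicate 1 and 55.9 in replicate 2, and its summit lay 166 bp upstream of its start. In the pooled list 27 of the 32 (84.4%) had a peak, beside 73.6% of genes, and the median of the strongest signals was 20.8 over the list and 17.1 over all genes with a peak. Replicate 1 had a peak at 10 of the 32 (31.3%), beside 11.9%, and replicate 2 at 27. After dlst-1 the strongest pooled peaks were at pdhb-1, a subunit of pyruvate dehydrogenase, with 37.8, at mdh-2, a malate dehydrogenase, with 34.7, and at suca-1, a subunit of succinyl-CoA synthetase, with 30.5. None of these reached the optimal list.

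**Figure D4:**
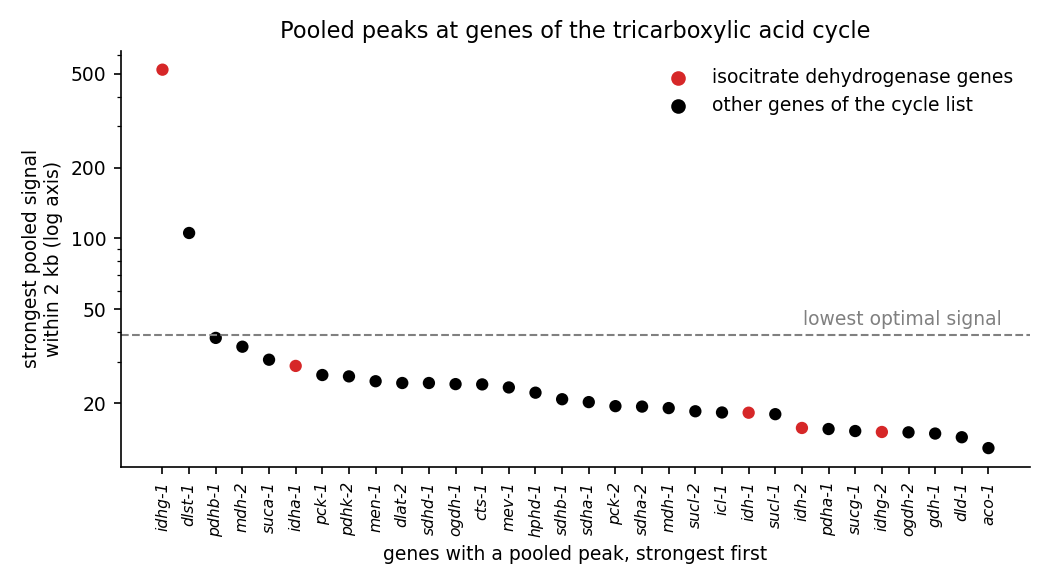
Strongest pooled signal within 2 kb of a start (log axis) for the isocitrate dehydrogenase genes, in red, and the listed genes of the tricarboxylic acid cycle, in black, in order of signal. Only genes with a pooled peak are drawn, and idhg-1 at 521 and dlst-1 at 105 are the 2 points above the lowest optimal signal.

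The genes with the most similar peaks were found by the Euclidean distance of log2 signal to idhg-1 over the pooled, replicate 1 and replicate 2 lists. Among 328 other nuclear optimal peaks seen in both replicates and within 2 kb of a start, the median distance was 5.24. These are counted by peak, and a gene can hold more than 1. The nearest was atx-2, the ataxin-2 gene, whose product binds RNA, at 0.583, with 415 pooled, 217 in replicate 1 and 198 in replicate 2. K05C4.2 followed at 0.659, with 399, 182 and 215, and C16C10.4 at 1.04, with 341, 169 and 172. The summits lay 64, 272 and 156 bp upstream of their nearest starts. Those of atx-2 and C16C10.4 were outside genes, while that of K05C4.2 was in an intron of K05C4.2 itself. The reads of each replicate also enter the pooled list, so the 3 values are not independent.

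A list of 16 motifs was searched within 100 bp of the idhg-1 summit, on both strands. Matches to 6 of them were found. The GATA site (A, C or T, then GATA, then A or G) occurred 3 times, at 81 bp before and at 69 and 81 bp after the summit, the last one being the extended site TGATAA as well. It was in 33.0% of optimal windows and in 49.2% of windows of the same length at protein-coding starts. Shares of the 16 motifs are over all 460 optimal windows, 20 of them mitochondrial, and over starts of nuclear genes only. TGATAA was in 9.35% of optimal and 20.6% of start windows. The Sp1 site (CC, A or G, then CCC) read CCGCCC at 34 bp after the summit, with 24.8% of optimal and 8.69% of start windows holding one. CGCGC was in 40% of optimal and 7.40% of start windows. The forkhead site (T, A or G, TT, G or T, A or G, C or T) was in 48.7% and 49.2%, and the E-box CANNTG in 57.6% and 58.1%.

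Neither the MED site (A or G, then AGTATAC) nor GTATAC, its core, occurred within 100 bp of the idhg-1 summit. The full site was in 0.652% of optimal windows and 0.701% of start windows, and the core in 2.83% and 2.03%. Within 2 kb of the first start idh-1 had 1 full site and the other members 0, beside 14.5% of all starts with at least one. The E-box of idhg-1 in its CACGTG form was in 1.82% of nuclear optimal windows of 50 bp on each side and in 1.86% of start windows. The idhg-1 window was 49.5% G and C over 50 bp on each side and 36.3% over 100 bp, against 43.8% for the median optimal window and 35.8% for the median start window of the longer length. 

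Paired modules were counted in several classes of windows. Because the pattern was taken from the strongest summits, and chosen with its shares at optimal summits in view, the counts at those peaks describe the choice and carry no test. Within 50 bp of the summit, 9 of the 10 strongest nuclear peaks had 2 or more modules on one strand, as had 25 of the 50 strongest (50%) and 57 of the 440 nuclear optimal peaks (13.0%). The same held for 17 of 19973 protein-coding starts (0.0851%) and 1 of 880 windows 400 bp to the left or right of the summits (0.114%). Start windows are centred on the annotated start and not on a summit, so they can miss pairs that lie upstream. The first module of idhg-1, for one, lies outside its start window, so the shares at summits and at starts are not like for like. Outside the optimal list 39 of 29537 pooled nuclear summits (0.132%) had a pair. Of the peaks within 500 bp of a start and away from small RNA genes, the class of the idhg-1 peak, 56 of 174 (32.2%) had a pair. At small RNA genes 0 of 192 had one.

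The median signal of those 174 peaks is given by module count as a description of the same choice. It was 124 for the 56 peaks with 2 or more, 67.8 for the 66 with 1 and 48.0 for the 52 with 0, and the ranges overlapped, at 50.4 to 521, 39.1 to 341 and 39.4 to 99.8. Without the 12 strongest nuclear peaks the medians were 106 for 46 peaks, 67.7 for 65 and 48.0 for 52. The GC content and the choice of the pattern with these peaks in view were not separated from these values. Most pairs in the genome lay outside the optimal peaks. Of 1286 pairs in the nuclear genome whose starts lie within 60 bp of each other, 66 (5.13%) overlapped an optimal peak, with 63 of the 383 within 500 bp of a protein-coding start (16.4%) and 3 of the 903 farther away (0.332%).

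**Figure D5:**
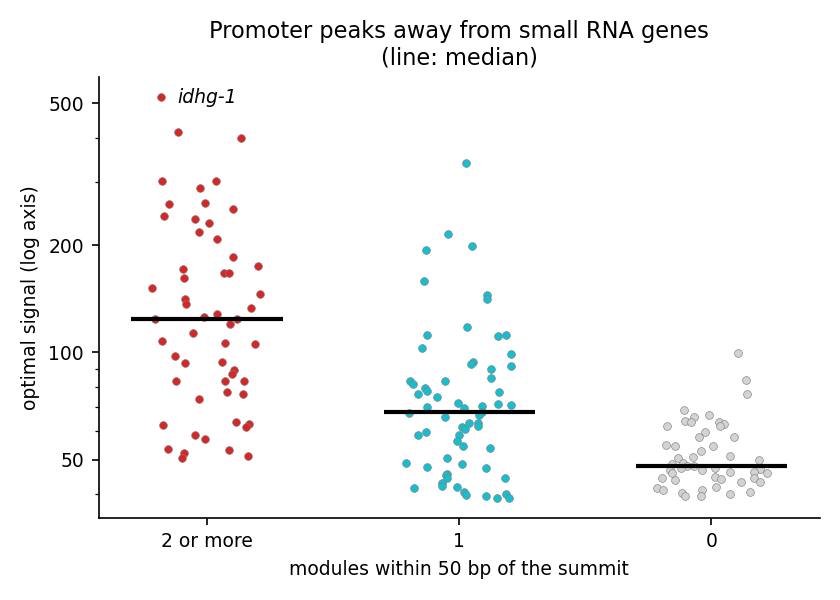
Optimal signal (log axis) of the 174 peaks within 500 bp of a start and away from small RNA genes, by the number of modules within 50 bp of the summit. Points are peaks with random horizontal spread and lines are medians, at 124, 67.8 and 48.0, and idhg-1 is the highest point.

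Because the idhg-1 summit was one source of the pattern, its pair is no second trait beside its signal. The strongest summits of the other members had 0 modules within 50 bp in the lists where they had a peak. The same held for 28151 of 29537 nuclear pooled summits outside the optimal list (95.3%), so 0 modules is the usual count there. Single modules were common at a distance, since 80.9% of all protein-coding starts had at least 1 within 2 kb. The members had 3 (idhg-1, idhg-2 and idh-1), 2 (idh-2) or 1 (idha-1 and idhb-1) there. Within 500 bp of the first start, idhg-1 had 3, idh-1 had 2 and the other members 0. The share of all starts with a module within 500 bp was not computed, so these counts have no background beside them. In the cycle list, the dlst-1 summit had 2 modules, pdhb-1 had 1, and mdh-2 and suca-1 had 0. A match describes letters only, and no match says only that these letters are not in the window searched.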

How the data were processed

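ChIP-seq peak lists of 2 biological replicates were used as deposited, in the narrowPeak format. Per the deposited file descriptions, the authors called the list of each replicate and a pooled list against a control, and made the optimal list from them by the irreproducible discovery rate. Which aligner, peak caller and threshold they used is not given in the sources used here. Signal values, never negative, are the authors' own, as deposited. The authors' deposited q-value column goes below 0 in lists that include background, so it served as a score, only to filter and rank. The deposited p-value column held a placeholder throughout and was not used. Read depth is unknown, so no counting error is attached to a signal.

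Peaks on ce11 were set against Ensembl release 115 transcripts and the RefSeq WBcel235 genome, and every peak end lay within the chromosome lengths. Lists on ce10 were read only for their strongest nuclear signal on III, which was 521 pooled, 243 in replicate 1 and 272 in replicate 2, and no coordinate was converted. Python 3.11.15 with pandas 2.3.3 and pysam 0.24.0 computed distances, ranks and motif matches, after checks on simulated peaks and sequences. The genes named are the members, their divergent neighbours within 2 kb, any gene nearer to a member's summit, the 3 genes with the most similar peaks, and the genes of the cycle list with an optimal peak or the 3 strongest pooled peaks; the genes of the 10 strongest nuclear peaks whose sequences are printed, sym-4 and lmd-1 were chosen after their values were seen. The members and lists were chosen with earlier results of these data known. No tests were run, as there is 1 group.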

Additional observations from a re-analysis of the deposited data

How the results depend on the processing

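Of 63 alternative values over 19 results, 40 stayed within the range of the reported value and 23 moved. The count of members with an optimal peak was 1 under every alternative computed, namely other distances, the first start only, each replicate alone and stricter peak sets. The idhg-1 peak kept nuclear rank 1 in each replicate alone; by the q-value column it shared the top value with other peaks, 125 in all, and ranking by the p-value column could not be run. Keeping peaks with a q-value column of at least 0 left 1 member with a pooled peak, instead of 5, and 2 with a peak in replicate 2, instead of 6. Extending the distance to 5 kb gave 3 members a peak in replicate 1, instead of 1. The cycle list had 1 to 2 genes with a strong peak when a replicate was left out: without replicate 1 there were 2, dlst-1 and mdh-2. The ratio of the idhg-1 signal to the median was 7.70 to 7.97 with one replicate left out and 8.89 over peaks away from small RNA genes. Searching 50 bp on each side found 3 of the fixed motifs at idhg-1, instead of 6, by construction of the shorter window. The share of protein-coding starts with 2 or more modules was 0.411% at 100 bp on each side, against 0.0851% at 50 bp. The module settings were chosen after seeing the data. The remaining values that moved were motif shares in shorter or longer windows and the median signals by module count without the 12 strongest nuclear peaks, 106 for 2 or more modules and 67.7 for 1. No paired analysis was possible because there is 1 group and no test. With 2 replicates and no read counts, the spread of a single signal is known only from 2 values.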
